A study of Homo sapiens with 3 samples.

Results

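Terminal differentiation products of squamous epithelium were followed in CaSki cells, as a set of 33 genes of 23277 gene symbols measured. The genes were listed by name: structural and crosslinking genes of the cornified envelope, secreted kallikreins, and protease inhibitors of stratified epithelium, without keratins and S100 genes. All 33 symbols were found in the files. CaSki is an established line from an epidermoid carcinoma of the cervix that carries human papillomavirus. Total RNA of 3 cultures was sequenced, as 1 library each. The first group carried FLAG-tagged NANOG in the retroviral vector pMSCV and received an siRNA against HDAC1. The second carried the same NANOG vector and received an siRNA against GFP, a control target. The third carried the empty pMSCV vector and received the GFP siRNA. The labels do not say whether the cells were a clone or a pool. The 3 groups are called NANOG-siHDAC1, NANOG-siGFP and vector cells below. What HDAC1 siRNA does in cells without NANOG is not analysed here. The study looked for genes controlled by NANOG, a homeobox factor of pluripotent cells, together with HDAC1, a histone deacetylase.

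When squamous cells mature, transglutaminases crosslink involucrin, small proline-rich proteins and loricrin beneath the plasma membrane into an insoluble shell, the cornified envelope. Kallikreins are secreted serine proteases that cut the junction proteins between the outermost cells, and small secreted inhibitors and cystatins restrain them and other proteases. The uterine ectocervix is lined by such an epithelium but, unlike skin, normally keeps its nuclei to the surface.

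The values were FPKM, fragment numbers divided by transcript length and by library size, which allow levels of different genes to be compared per length. Since a group was 1 library, replicates to check the differences are lacking and tests were not possible. Absolute depth was unknown. Low values move in single-fragment steps, and only their ratios near 1 were searched. These were 441 ratios from 2156 low genes for NANOG-siHDAC1 over NANOG-siGFP cells and 418 for vector over NANOG-siGFP cells. The most frequent of them was 0.999 for the former and 1.019 for the latter. The search could not have shown depths far apart, so the correction for depth used below assumes that depths were close. NANOG was at 325 FPKM in NANOG-siHDAC1 cells, 298 FPKM in NANOG-siGFP cells and 0.0357 FPKM in vector cells. HDAC1 was at 12.8 FPKM in NANOG-siHDAC1, 108 FPKM in NANOG-siGFP and 19.02 FPKM in vector cells, so the NANOG-siGFP library stood apart in HDAC1, and the counts of members and lists are also given between NANOG-siHDAC1 and vector cells. Of 6 squamous markers, KRT5 (at 540 FPKM in NANOG-siHDAC1, 959 FPKM in NANOG-siGFP and 555 FPKM in vector cells), KRT14, COL17A1 and PERP were abundant, TP63 ranged over the libraries between 0.785 and 1.29 FPKM, and DSG3, a desmosomal cadherin of squamous cells, was at no more than 0.0506 FPKM. The columnar keratins KRT7, KRT8 and KRT18 were at 683 to 1434 FPKM, while the mucous cell genes TFF3 and AGR2 were listed at 0 throughout. PAX8, also on the columnar list, was at 27.2 FPKM in NANOG-siHDAC1, 25.2 FPKM in NANOG-siGFP and 52.7 FPKM in vector cells, a log2 difference from vector cells of -0.93 in NANOG-siHDAC1 and -1.04 in NANOG-siGFP cells. The squamous markers summed to 772 FPKM in NANOG-siHDAC1, 1190 FPKM in NANOG-siGFP and 893 FPKM in vector cells and the columnar markers to 2797 FPKM in NANOG-siHDAC1, 3386 FPKM in NANOG-siGFP and 2608 FPKM in vector cells; their part in the results below was not tested. The higher squamous sum in NANOG-siGFP cells was that of KRT5: of the 5 squamous markers that averaged 1 FPKM or more, the other 4 were lower in NANOG-siGFP than in vector cells (median of the 5, -0.36), and all 5 were lower in NANOG-siHDAC1 than in vector cells (median -0.19). Fibroblast markers summed to 0.0384 FPKM in NANOG-siHDAC1, 1.02 FPKM in NANOG-siGFP and 0.0307 FPKM in vector cells, and endothelial markers to 0.493 FPKM in NANOG-siHDAC1, 0.448 FPKM in NANOG-siGFP and 0.289 FPKM in vector cells. The higher fibroblast sum in NANOG-siGFP cells was that of COL1A2, at 0.948 FPKM there, while DCN, LUM and PDGFRA were at no more than 0.0425 FPKM in any library. Among leukocyte markers, CD68, a lysosomal protein gene not confined to macrophages, was at 53.5 FPKM in NANOG-siHDAC1, 61.2 FPKM in NANOG-siGFP and 50.7 FPKM in vector cells, and PTPRC and CD3E were at no more than 0.0251 FPKM in any library.

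The set held few of the products that its name calls to mind. Of the 33 genes, 6 were listed at exactly 0 in all 3 libraries and 13 more never reached 1 FPKM. The 6 were the envelope gene LOR (loricrin), the late envelope gene LCE3D, CRNN (cornulin of the oesophagus), the calmodulin-like CALML5, the upper-layer desmosomal cadherin gene DSG1 and the ammonium transporter gene RHCG. A value of exactly 0 can be a failed estimate in these files, so these genes are described only as listed at 0. The other 14 genes reached at least 1 FPKM in 1 library or more, and 13 of them averaged 1 FPKM or more and entered the counts of differences; KLK8 averaged less. By level, the order in NANOG-siGFP cells was CSTB at 117, LYPD3 at 72.3, SERPINB1 at 38.1, SLPI at 35.9 and KLK5 at 34.9 FPKM. In vector cells it was SLPI at 108, CSTB at 101, KLK5 at 72.8, SERPINB1 at 48.7 and LYPD3 at 43.2 FPKM. SLPI and KLK5 were thus further down this order in NANOG-siGFP cells than in vector cells. Among all 21636 genes without small RNAs, the level of SLPI ranked 2388 from the top in NANOG-siGFP cells and 752 in vector cells.

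The promoters of 4 genes that were past 2-fold between NANOG-siGFP and vector cells are shown first, since 3 kallikreins that were low together in both NANOG libraries lie in 1 gene cluster, whereas the proline-rich SPRR1B was high. Of the 33 genes, 25 had an entry in the RefSeq promoter table (build GRCh38.p14, from 250 bases before to 50 bases after the annotated start); SLPI, the other gene past 2-fold, is not among them. Each is printed 5′ to 3′ on the strand of its gene. Capitals mark matches to the AP-1 letters TGANTCA on either strand, a motif long studied in the promoters of involucrin and the small proline-rich genes; no printed sequence holds the homeodomain core TAAT, the TATA letters TATAAA or the grainyhead letters AACCGGTT on either strand. SPRR1B lies on the plus strand (chr1:153030953-153031252), and KLK5 (chr19:50952989-50953288), KLK6 (chr19:50969542-50969841) and KLK10 (chr19:51019812-51020111) lie on the minus strand.
SPRR1B: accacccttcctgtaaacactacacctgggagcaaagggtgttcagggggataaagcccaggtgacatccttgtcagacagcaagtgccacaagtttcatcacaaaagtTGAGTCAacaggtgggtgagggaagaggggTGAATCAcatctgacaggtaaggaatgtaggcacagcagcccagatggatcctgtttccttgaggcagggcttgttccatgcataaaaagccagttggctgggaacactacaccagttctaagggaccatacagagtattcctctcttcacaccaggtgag
KLK5: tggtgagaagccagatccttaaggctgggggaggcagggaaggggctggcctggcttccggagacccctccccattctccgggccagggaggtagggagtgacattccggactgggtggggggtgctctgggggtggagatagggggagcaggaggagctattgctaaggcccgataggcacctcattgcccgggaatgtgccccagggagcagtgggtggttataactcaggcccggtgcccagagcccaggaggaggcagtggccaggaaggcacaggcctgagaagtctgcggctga
KLK6: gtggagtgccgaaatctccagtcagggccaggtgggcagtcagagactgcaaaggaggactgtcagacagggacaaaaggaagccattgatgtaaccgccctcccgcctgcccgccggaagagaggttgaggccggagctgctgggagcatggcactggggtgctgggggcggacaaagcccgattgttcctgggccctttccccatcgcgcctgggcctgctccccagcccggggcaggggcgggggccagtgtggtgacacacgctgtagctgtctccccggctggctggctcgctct
KLK10: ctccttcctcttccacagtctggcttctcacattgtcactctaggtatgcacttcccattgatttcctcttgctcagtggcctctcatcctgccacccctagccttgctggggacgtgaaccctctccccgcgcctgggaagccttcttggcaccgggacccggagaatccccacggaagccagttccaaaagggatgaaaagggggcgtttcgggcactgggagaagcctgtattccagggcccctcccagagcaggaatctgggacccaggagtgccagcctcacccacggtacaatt

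The SPRR1B sequence held 2 AP-1 matches, at positions -141 and -111 from the start, and they did not overlap another motif searched. The AP-1 letters were found in 9 of 11 matched envelope genes (IVL, LOR, FLG, SPRR1A, SPRR1B, SPRR2A, SPRR3, CRNN and SBSN) and in 0 of 5 kallikreins, 0 of 4 antiproteases and 0 of 5 of the remaining genes. Over the set this was 9 of 25 promoters (36.0%), against 7.71% of 35116 RefSeq promoters of the same length. All of the 9 genes but SBSN lie on chromosome 1 and some are close relatives, so their promoters are not independent. Of the 9 matched genes that reached 1 FPKM, 3 held the letters: IVL, SPRR1B and SPRR3. Against vector cells, IVL was lower in both NANOG libraries and SPRR1B higher, so the letters did not go with 1 direction. TAAT, the core that homeodomain proteins such as NANOG bind, was in 12 of the 25 (48.0%) against 50.2% of all promoters, and in 0 of the 5 kallikreins. TATAAA was in 8 of the 25 (32.0%) against 11.5% of all, and AACCGGTT in 0 of 25 against 0.134% of all. The 3 printed kallikrein promoters were 59.0% to 66.3% G and C, and that of SPRR1B 50.3%. A match describes letters, and absence of one says only that this window does not hold them.

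Each of the 4 kallikreins that reached 1 FPKM was lower in both NANOG libraries than in vector cells. Their differences were taken on the scale of log2(FPKM + 1), where a size of 1 is 2-fold and changes of low genes are understated. In bulk RNA, fewer cells that make a transcript and less transcript per cell cannot be told apart. KLK5, a trypsin-like protease that activates other kallikreins in skin, was at 32.0 FPKM in NANOG-siHDAC1 cells, 34.9 FPKM in NANOG-siGFP cells and 72.8 FPKM in vector cells. The level in NANOG-siGFP cells was 47.9% of that in vector cells, a log2 difference of -1.04, which was -0.97 and so short of 2-fold with upper quartile scaling. In NANOG-siHDAC1 cells KLK5 was at 91.6% of its level in NANOG-siGFP cells.

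KLK6, another trypsin-like kallikrein, was at 3.75 FPKM in NANOG-siHDAC1, 3.06 FPKM in NANOG-siGFP and 11.8 FPKM in vector cells. In NANOG-siGFP cells its level was 26.0% of that in vector cells, the lowest share of the 13 genes counted, and its log2 difference was -1.65. Only 25 of the 11398 genes compared had a more negative difference. In NANOG-siHDAC1 cells KLK6 stood at 122% of its level in NANOG-siGFP cells and at 31.8% of the level in vector cells.

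KLK10, a kallikrein lost in some tumours, was at 4.29 FPKM in NANOG-siHDAC1, 4.26 FPKM in NANOG-siGFP and 10.4 FPKM in vector cells. Its log2 difference was -1.11 in NANOG-siGFP cells and -1.11 in NANOG-siHDAC1 cells, both against vector cells, and 0.01 between the NANOG libraries. KLK8, known as neuropsin, was at 0.198 FPKM in NANOG-siHDAC1, 0.159 FPKM in NANOG-siGFP and 1.09 FPKM in vector cells, and its level in NANOG-siGFP cells was 14.5% of that in vector cells. Its log2 difference of -0.85 is small because a pseudocount of 1 FPKM weighs heavily at such levels. KLK7, the chymotrypsin-like kallikrein of skin, was near the floor at 0.0193 FPKM in NANOG-siHDAC1, 0.0386 FPKM in NANOG-siGFP and 0.0786 FPKM in vector cells, values that stood as 1 to 2 to 4 within 2% after correction for depth and so may rest on very few fragments. KLK11 was listed at 0 FPKM in NANOG-siHDAC1, 0.0911 FPKM in NANOG-siGFP and 0.0337 FPKM in vector cells.

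The genes around them in the cluster were looked at after the values of the set were seen. In RefSeq order, KLK5, KLK6, KLK7, KLK8, KLK9, KLK10 and KLK11 follow each other with no other protein-coding gene between them. KLK9, which is not of the set, was listed at 0 FPKM in NANOG-siHDAC1, 0 FPKM in NANOG-siGFP and 0.216 FPKM in vector cells. On the near side KLK1, KLK15, KLK3, KLK2 and KLK4 were at or below 0.0945 FPKM, and on the far side KLK12 and KLK13 were at or near 0. KLK14, at the far end, was at 0.487 FPKM in NANOG-siHDAC1, 0.626 FPKM in NANOG-siGFP and 0.319 FPKM in vector cells and did not share the pattern. Summed over the 6 kallikreins of the set, the level was 40.2 FPKM in NANOG-siHDAC1 cells, 42.5 FPKM in NANOG-siGFP cells and 96.2 FPKM in vector cells, most of it from KLK5. In GENCODE release 29, exons of an antisense transcript gene cover 12.9% of the exon bases of KLK5 and 20.3% of those of KLK6, and exons of another cover 7.15% of those of KLK10. The library kit keeps strand, but no source used here says whether the counting used it, so reads of these pairs cannot be told apart. KLK8 shares 42.5% of its 50-base stretches with an overlapping annotated gene on the same strand, and its value is uncertain.

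**Figure D1:**
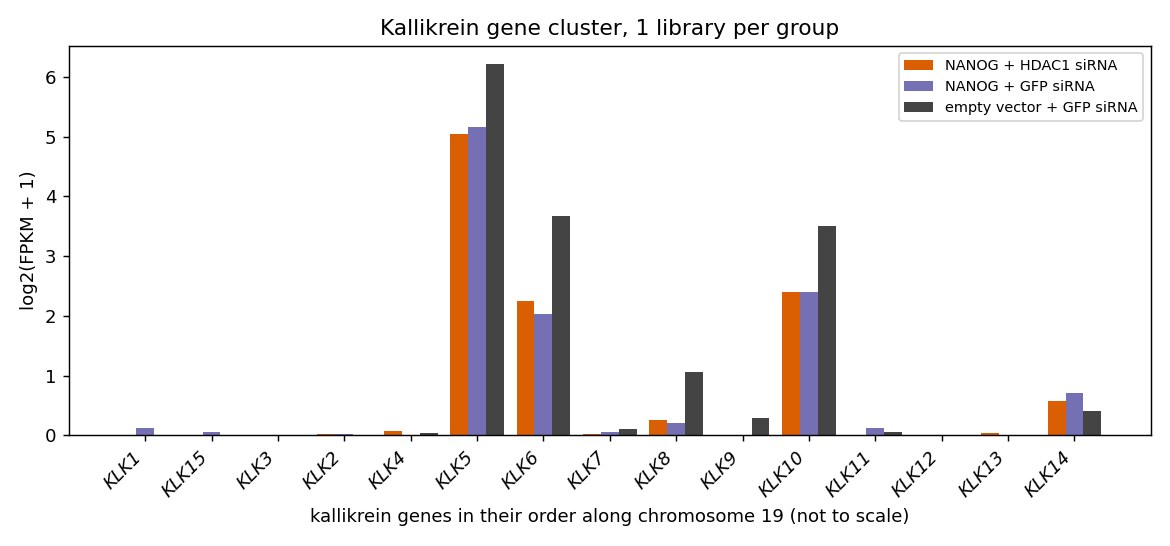
Level of each kallikrein gene as log2(FPKM + 1), in gene order along chromosome 19 (not to scale), with 1 bar per library. KLK5, KLK6, KLK8 and KLK10 stand lower in both NANOG libraries than in vector cells, for example KLK6 at 3.75 FPKM in NANOG-siHDAC1, 3.06 FPKM in NANOG-siGFP and 11.8 FPKM in vector cells, while KLK14 does not.

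Protease inhibitors were mixed, with SLPI and CSTA lower in both NANOG libraries and CSTB and PI3 slightly higher. SLPI, a secreted inhibitor of neutrophil elastase and cathepsin G, was at 31.4 FPKM in NANOG-siHDAC1 cells, 35.9 FPKM in NANOG-siGFP cells and 108 FPKM in vector cells. Its level in NANOG-siGFP cells was 33.3% of that in vector cells, a log2 difference of -1.56, and 32 of 11398 genes lay lower still. In NANOG-siHDAC1 cells it was 29.1% of the level in vector cells (log2 difference -1.75), and 14 genes lay lower still.

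CSTA, which encodes the cysteine protease inhibitor cystatin A and is itself built into the envelope, was at 7.44 FPKM in NANOG-siHDAC1, 8.74 FPKM in NANOG-siGFP and 17.1 FPKM in vector cells. Its log2 difference from vector cells was -0.90 in NANOG-siGFP cells, short of 2-fold on this scale, and -1.10 in NANOG-siHDAC1 cells. CSTB, the related cystatin B made in most tissues, was at 116.7 FPKM in NANOG-siHDAC1, 117.2 FPKM in NANOG-siGFP and 101.01 FPKM in vector cells (log2 difference 0.21 in NANOG-siGFP cells against vector cells). The 2 cystatins thus stood on opposite sides of their levels in vector cells.

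PI3, which encodes the elastase inhibitor elafin, was at 3.82 FPKM in NANOG-siHDAC1, 3.56 FPKM in NANOG-siGFP and 3.02 FPKM in vector cells, a log2 difference of 0.18 in NANOG-siGFP cells against vector cells. PI3 and SLPI are close neighbours, with SEMG1 and SEMG2, both listed at 0, as the protein-coding genes between them in RefSeq order. SERPINB1, an intracellular inhibitor of neutrophil serine proteases, was at 43.9 FPKM in NANOG-siHDAC1, 38.1 FPKM in NANOG-siGFP and 48.7 FPKM in vector cells, differing by -0.35 in NANOG-siGFP cells from vector cells. Summed over the 8 inhibitors, the level was 204 FPKM in each NANOG library and 278 FPKM in vector cells.

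The squamous cell carcinoma antigens SERPINB3 and SERPINB4, adjacent serpin genes, were barely detected. SERPINB3 was at 0.0210 FPKM in NANOG-siHDAC1, 0.0210 FPKM in NANOG-siGFP and 0.150 FPKM in vector cells, whose sizes stood as 1 to 1 to 7 within 2% after correction for depth. SERPINB4 was at 0.436 FPKM in NANOG-siHDAC1, 0.0436 FPKM in NANOG-siGFP and 0.444 FPKM in vector cells, which stood as 10 to 1 to 10. SERPINB4 was therefore low in NANOG-siGFP cells alone, and SERPINB3 in both NANOG libraries, at levels that may rest on few fragments. The genes share 23.3% of the 50-base stretches of SERPINB3 and 23.0% of those of SERPINB4, so their reads can be split between them and both values are uncertain. A2ML1, a broad protease inhibitor of the alpha macroglobulin family, stayed at or below 0.0283 FPKM.

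**Figure D2:**
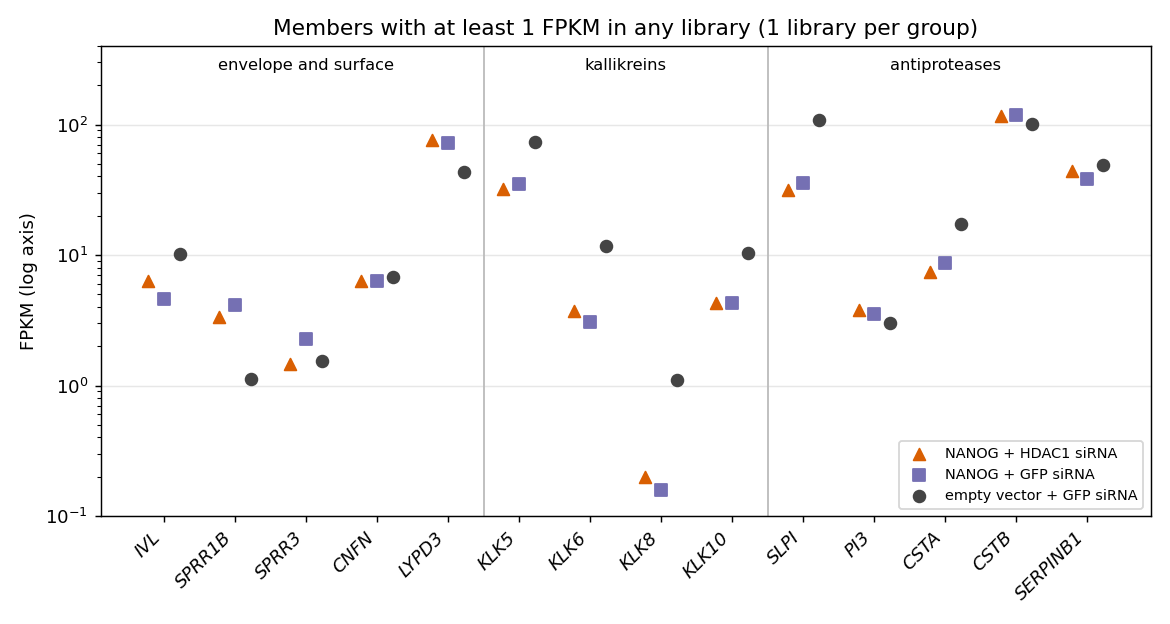
FPKM on a log axis of the 14 genes that reached 1 FPKM, with 1 point per library. For KLK5, KLK6, KLK8, KLK10, SLPI, CSTA and IVL the points of both NANOG libraries lie below that of the vector library, and for SPRR1B and LYPD3 above it. By smaller differences, those of SERPINB1 and CNFN also lie below it and those of PI3 and CSTB above it, while SPRR3 is split.

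Envelope precursors went different ways. IVL, which encodes involucrin, an early glutamine-rich scaffold of the envelope, was at 6.33 FPKM in NANOG-siHDAC1 cells, 4.61 FPKM in NANOG-siGFP cells and 10.2 FPKM in vector cells. Its log2 difference from vector cells was -0.99 in NANOG-siGFP cells, just short of 2-fold on this scale and past it with a pseudocount of 0.5 FPKM (-1.06), although its FPKM was 45.4% of the level in vector cells. In NANOG-siHDAC1 cells it was 62.3% of that level (log2 difference -0.61). Between the NANOG libraries IVL differed by 0.39, and 336 of the 11398 genes had a larger positive difference.

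SPRR1B, a small proline-rich crosslinker whose promoter is printed above, was at 3.36 FPKM in NANOG-siHDAC1, 4.16 FPKM in NANOG-siGFP and 1.12 FPKM in vector cells. Of the 13 genes counted it was the only one at least 2-fold higher than in vector cells on this scale, with a log2 difference of 1.29 in NANOG-siGFP cells and 1.04 in NANOG-siHDAC1 cells. Its close relative SPRR1A was at 0.475 FPKM in NANOG-siHDAC1, 0.474 FPKM in NANOG-siGFP and 0.704 FPKM in vector cells, lower in both NANOG libraries. SPRR1B shares 4.38% of its 50-base stretches with SPRR1A, and SPRR1A 11.3% with SPRR1B, so some reads could be assigned to either. Summed, the pair was at 3.84 FPKM in NANOG-siHDAC1, 4.63 FPKM in NANOG-siGFP and 1.82 FPKM in vector cells. On the log2(FPKM + 1) scale the sum differed from vector cells by 0.78 in NANOG-siHDAC1 cells and by 0.999 in NANOG-siGFP cells, just short of the 2-fold threshold, so that no gene of the set then passed it upward.

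SPRR3, a relative typical of moist stratified epithelia, was at 1.46 FPKM in NANOG-siHDAC1, 2.27 FPKM in NANOG-siGFP and 1.53 FPKM in vector cells, highest in NANOG-siGFP cells alone. SPRR2A was at 0.390 FPKM in NANOG-siHDAC1, 0.130 FPKM in NANOG-siGFP and 0.265 FPKM in vector cells, which stood as 3 to 1 to 2 within 2% after correction for depth, and SPRR2D at 0.709 FPKM in NANOG-siHDAC1, 0.386 FPKM in NANOG-siGFP and 0.524 FPKM in vector cells. SPRR2A shares 32.7% of its 50-base stretches with other genes, all of them SPRR2 relatives, so these values are uncertain. CNFN, which encodes the envelope protein cornifelin, was nearly level at 6.27 FPKM in NANOG-siHDAC1, 6.34 FPKM in NANOG-siGFP and 6.74 FPKM in vector cells. FLG, whose product filaggrin bundles keratin, was at 0.366 FPKM in NANOG-siHDAC1, 0.515 FPKM in NANOG-siGFP and 0.605 FPKM in vector cells, and SBSN (suprabasin) stayed at or below 0.0848 FPKM.

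The remaining genes handle crosslinking, adhesion and control. The envelope transglutaminase genes were hardly measured: TGM1 was at 0.130 FPKM in NANOG-siHDAC1, 0.0910 FPKM in NANOG-siGFP and 0.106 FPKM in vector cells, and TGM3 was listed at 0 FPKM in NANOG-siHDAC1, 0.0135 FPKM in NANOG-siGFP and 0.0138 FPKM in vector cells. GRHL3, a grainyhead transcription factor of the epidermal barrier, was at 0.0988 FPKM in NANOG-siHDAC1, 0.0901 FPKM in NANOG-siGFP and 0.0918 FPKM in vector cells. LYPD3, a surface protein related to the urokinase receptor and found on suprabasal squamous cells, was the exception, at 75.7 FPKM in NANOG-siHDAC1, 72.3 FPKM in NANOG-siGFP and 43.2 FPKM in vector cells. Its level in NANOG-siGFP cells was 167% of that in vector cells, a log2 difference of 0.73, and in NANOG-siHDAC1 cells it was 175% (log2 difference 0.79). Of 11398 genes, 223 lay higher in NANOG-siGFP against vector cells and 75 in NANOG-siHDAC1 against vector cells.

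Counted over the set, NANOG-siGFP cells had 4 genes at least 2-fold lower than vector cells, KLK5, KLK6, KLK10 and SLPI, and 1 at least 2-fold higher, SPRR1B. Among all 11398 genes that averaged 1 FPKM or more, 1.2% were 2-fold lower and 0.676% were 2-fold higher. The 13 genes counted are those with measurable levels, not the whole set of 33; their median difference was -0.35, beside -0.01 over all genes, with 8 lower and 5 higher where 50.8% of all genes were lower. The middle 95% of all genes lay between -0.80 and 0.68. Outside it were KLK5, KLK6, KLK10, SLPI, CSTA and IVL below, and SPRR1B and LYPD3 above. The genes were listed with earlier results of these data known, so these counts describe the set and give no independent evidence.

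NANOG-siHDAC1 cells had 0 genes of the set past 2-fold in either direction against NANOG-siGFP cells, where 0.0877% of all genes were 2-fold higher and 0.211% 2-fold lower. All 13 genes counted lay within the middle 95% of all genes (-0.48 to 0.40), from SPRR3 at -0.41 to IVL at 0.39. Their median was -0.01, beside 0.01 over all genes. Rescaling each library to the same sum (TPM) shifted the all-gene median to 0.18 in this comparison, and KLK5 then changed from -0.12 to 0.06; CNFN, CSTB and KLK10 also changed sign under some scaling.

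Against vector cells, NANOG-siHDAC1 cells had 5 genes at least 2-fold lower, KLK5 (-1.16), KLK6 (-1.43), KLK10 (-1.11), SLPI (-1.75) and CSTA (-1.10), and 1 higher, SPRR1B (1.04). Over all genes 0.807% were 2-fold lower and 0.368% 2-fold higher. The median of the 13 was -0.15, beside -0.0010 over all genes. This comparison and the first share the vector library, so a value peculiar to that library would enter both. It does not use the NANOG-siGFP library, in which HDAC1 stood apart. The first comparison and the one between the NANOG libraries both use that library, with opposite sign. A value peculiar to it would therefore enter them in opposite directions.

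**Figure D3:**
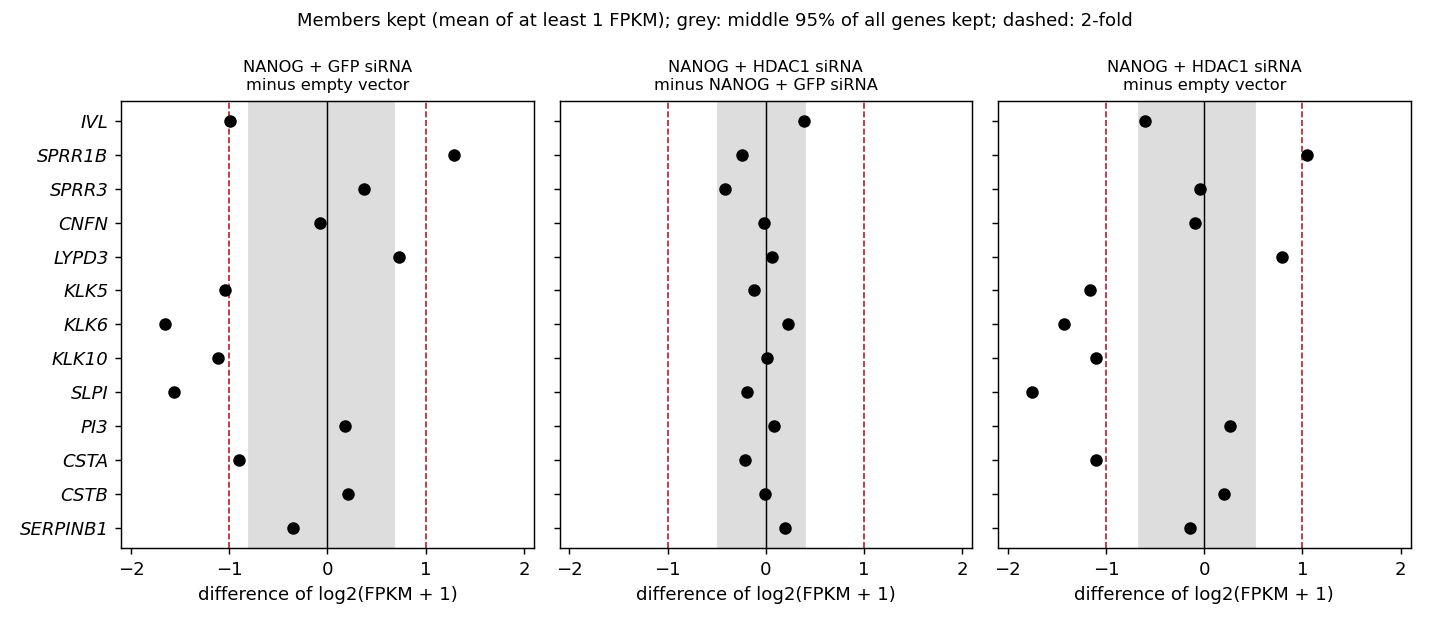
Difference of log2(FPKM + 1) for the 13 genes counted, in 3 comparisons, with 1 point per gene. Grey bands hold the middle 95% of all 11398 genes and dashed lines mark 2-fold; KLK5, KLK6, KLK10 and SLPI lie beyond the lower line in both comparisons with vector cells, and all 13 points lie inside the band between the NANOG libraries.

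Other genes of the same program were drawn from 5 lists of names, and their medians are read beside those of all genes, -0.01 for NANOG-siGFP against vector cells, 0.01 for NANOG-siHDAC1 against NANOG-siGFP cells and -0.0010 for NANOG-siHDAC1 against vector cells. In that last comparison 0 genes of the 5 lists were 2-fold different, where 0.807% of all genes were 2-fold lower and 0.368% 2-fold higher. With the few genes counted per list, a count of 0 is close to such shares. A log2 difference in parentheses is NANOG-siGFP minus vector cells unless stated. Of 45 other envelope and epidermal differentiation genes, 15 were listed at 0 throughout and 6 averaged 1 FPKM or more; 0 of these 6 were 2-fold different in any of the comparisons, and 3 were lower and 3 higher in NANOG-siGFP cells than in vector cells (median 0.02). In NANOG-siHDAC1 against vector cells 3 were higher and 3 lower (median 0.12). The 6 include TCHP, which encodes trichoplein and is not an envelope gene. TCHP was among the higher genes against vector cells, at 0.39 in NANOG-siGFP and 0.46 in NANOG-siHDAC1 cells, so these splits and medians partly rest on it. PPL, which encodes the envelope and desmosome linker periplakin, was at 11.7 FPKM in NANOG-siHDAC1, 13.1 FPKM in NANOG-siGFP and 22.1 FPKM in vector cells (log2 difference -0.71). DMKN (dermokine) was at 104 FPKM in NANOG-siHDAC1, 95.1 FPKM in NANOG-siGFP and 82.1 FPKM in vector cells (log2 difference 0.21), and CDSN, which encodes the corneodesmosin that kallikreins cut, at 3.47 FPKM in NANOG-siHDAC1, 2.99 FPKM in NANOG-siGFP and 3.49 FPKM in vector cells.

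Of 18 other kallikreins, surface serine proteases and cysteine proteases in the files, 4 averaged 1 FPKM or more, and none of these is a kallikrein. ST14, PRSS8 and PRSS22 were lower and CTSL2 was higher in NANOG-siGFP cells than in vector cells (median of the 4, -0.33). CTSL2, the cysteine protease gene among them, was at 1.44 FPKM in NANOG-siHDAC1, 2.26 FPKM in NANOG-siGFP and 1.01 FPKM in vector cells (log2 difference 0.70). Past 2-fold in NANOG-siGFP against vector cells, where 1.2% of all genes were 2-fold lower, was PRSS8, which encodes the membrane-anchored protease prostasin, at 56.2 FPKM in NANOG-siHDAC1 cells, 40.5 FPKM in NANOG-siGFP cells and 99.7 FPKM in vector cells (log2 difference -1.28). ST14, which encodes matriptase, was at 56.3 FPKM in NANOG-siHDAC1, 48.0 FPKM in NANOG-siGFP and 60.5 FPKM in vector cells. The log2 difference of PRSS8 was 0.46 between NANOG-siHDAC1 and NANOG-siGFP cells. Between NANOG-siHDAC1 and vector cells it was -0.82, short of 2-fold, and the 4 genes were split into 2 higher and 2 lower (median 0.078).

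Of 22 other protease inhibitors, 11 were counted, with 8 lower and 3 higher in NANOG-siGFP cells than in vector cells and 0 past 2-fold (median -0.43). CST6, which encodes cystatin M/E, was at 295 FPKM in NANOG-siHDAC1, 225 FPKM in NANOG-siGFP and 419 FPKM in vector cells (log2 difference -0.89), SERPINB7 at 11.1 FPKM in NANOG-siHDAC1, 7.65 FPKM in NANOG-siGFP and 13.3 FPKM in vector cells (log2 difference -0.73) and SPINT2, a Kunitz inhibitor of matriptase and prostasin, at 430 FPKM in NANOG-siHDAC1, 378 FPKM in NANOG-siGFP and 549 FPKM in vector cells (log2 difference -0.54). Between the NANOG libraries 7 of the 11 were higher in NANOG-siHDAC1 cells (median 0.19), among them SERPINB7 at 0.49 and CST6 at 0.39. Of all genes, 53.4% were higher in that comparison. In NANOG-siHDAC1 against vector cells 8 were lower and 3 higher (median -0.23), with CST6 at -0.50 and SPINT2 at -0.35. SPINK5, which encodes the main inhibitor of kallikreins in skin and is named after its values were seen, was listed at 0 in all 3 libraries.

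Of 20 epidermal lipid genes in the files, 8 were counted, with 5 lower and 3 higher in NANOG-siGFP cells than in vector cells (median -0.18). UGCG, which makes glucosylceramide, was at 51.0 FPKM in NANOG-siHDAC1, 34.2 FPKM in NANOG-siGFP and 68.7 FPKM in vector cells (log2 difference -0.99). Between the NANOG libraries 7 of the 8 were higher in NANOG-siHDAC1 cells (median 0.17), where 53.4% of all genes were higher. The largest difference between these libraries was 0.66, for the lipoxygenase gene ALOXE3 (9.42 FPKM in NANOG-siHDAC1, 5.61 FPKM in NANOG-siGFP and 8.27 FPKM in vector cells). In NANOG-siHDAC1 against vector cells the 8 lipid genes were split into 4 higher and 4 lower (median 0.020), with UGCG at -0.42.

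Of 22 regulators in the files, 17 were counted and had a median of -0.06 in NANOG-siGFP against vector cells, with 1 gene 2-fold higher, the Notch target HES1 (16.1 FPKM in NANOG-siHDAC1, 23.9 FPKM in NANOG-siGFP and 8.26 FPKM in vector cells; log2 difference 1.43), and 1 lower, the nuclear receptor gene RORA (1.20 FPKM in NANOG-siHDAC1, 0.834 FPKM in NANOG-siGFP and 3.03 FPKM in vector cells; log2 difference -1.13). Among all genes, 0.676% were 2-fold higher and 1.2% lower in that comparison. In NANOG-siHDAC1 against vector cells the log2 difference was 0.88 for HES1 and -0.87 for RORA, both short of 2-fold, and 9 regulators were higher and 8 lower (median 0.13). KLF4, a barrier factor of skin, was at 53.6 FPKM in NANOG-siHDAC1, 40.9 FPKM in NANOG-siGFP and 46.6 FPKM in vector cells.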

How the data were processed

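Total RNA of 3 CaSki cultures was sequenced, 1 library a group, with groups taken from the vector and siRNA labels. Per the labels' protocols, the library kit was TruSeq Stranded Total RNA. TopHat2, Cufflinks and hg19 are named in the submitters' processing notes; no source used here gives versions, annotation or strand setting. What the authors deposited is 1 FPKM value per symbol and library. FPKM is relative to library size and transcript length, so a few abundant RNAs lower all other values.

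Small RNA symbols (1641 of 23277) were left out. Differences were taken as log2(FPKM + 1) for genes averaging 1 FPKM or more, and counted from 2-fold; there was no test, since a group was 1 library. The members and lists were chosen with earlier results of these data known. By the rule for named genes, every member was accounted for, those reaching 1 FPKM with all values, and up to 4 genes per other list and comparison could be named. Alternatives were other pseudocounts, filters, scalings, fold thresholds, the mean for the median and summed near-identical members. Shared sequence was the share of 50-base stretches found in transcripts of another gene in GENCODE release 29, and gene order came from RefSeq GRCh38.p14; neither is the build of the values. Python 3.11.15, numpy 2.4.6, pandas 2.3.3 and matplotlib 3.10.9 were used.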

Additional observations from a re-analysis of the deposited data

How the results depend on the processing

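With 1 library a group, spread between cultures is unknown. No paired analysis was possible because each group held 1 library. All 13 genes counted kept the sign of their difference between NANOG with GFP siRNA and empty vector under every alternative in which they had a value. Between NANOG with HDAC1 siRNA and empty vector all of them but CNFN and SPRR3 did so. Between the NANOG libraries the sign changed for 4 genes, CNFN, CSTB, KLK10 and KLK5. A change of filter leaves the value of a gene as it is, so only the pseudocounts and scalings could change a sign. KLK8 had no value under those and was not put to this check. KLK5 fell short of 2-fold under upper quartile scaling (-0.97), and IVL passed it with pseudocounts of 0.1 FPKM (-1.12) and 0.5 FPKM (-1.06) and under TPM (-1.08), all with NANOG and GFP siRNA against empty vector. The median of the members moved with the genes let in. For NANOG with GFP siRNA against empty vector it was -0.020 with no filter on low values and -0.94 with a filter at 5 FPKM. For NANOG with HDAC1 siRNA against empty vector it was -0.0080 and -0.86 under these filters, -0.012 under TPM and -0.39 by the mean. TPM also moved the median of all genes in that comparison, to 0.125, so the members still lay below it. Between the NANOG libraries the median of the members was 0.17 under TPM, beside 0.18 over all genes. In each comparison with empty vector, the count of 1 gene 2-fold higher became 0 with a filter at 5 FPKM, with near-identical members summed and at a 3-fold threshold, and 2 at 1.5-fold. The count of lower genes became 1 at 3-fold in each. With NANOG and GFP siRNA against empty vector, 3.47% of all genes were 1.5-fold higher, 0.184% 3-fold higher and 0.281% 3-fold lower. For NANOG with HDAC1 siRNA against empty vector these shares were 1.78%, 0.123% and 0.202%. The share 2-fold higher with a filter at 5 FPKM was 0.650% in the first of these comparisons and 0.319% in the other. Depth is unknown, so values below 1 FPKM carry little weight.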
